A study of Homo sapiens with 24 samples.

Results

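The 40 genes described here encode proteins of the G2 phase and of mitosis, from the cyclins and kinases that start mitosis to the proteins that divide the cell. They were chosen by symbol, as a list of known mitotic genes, and matched to the 20345 Ensembl gene IDs of the count table, of which 19086 are protein-coding in the GENCODE annotation of hg19. All 40 were found, and all 40 passed the filter on low counts in every test. The data are counts from 24 libraries of a human melanoma cell line, named as A2058 in the methods of the paper. A figure legend of the paper instead names A375, another melanoma line, for the translation efficiencies. The cells had received either a control siRNA (siCTRL) or one that targets LSM14A (siLSM14A), an mRNA-binding protein of cytoplasmic RNA granules. They were then left untreated (NT) or given hydroxyurea (HU), an inhibitor of ribonucleotide reductase that stalls DNA replication, at 10 mM for 2 h. The 4 conditions siCTRL NT, siCTRL HU, siLSM14A NT and siLSM14A HU had 3 cultures each. From all 12 cultures both total RNA and heavy polysomal RNA, the gradient fractions in which mRNAs that carry many ribosomes collect, were sequenced. Every culture, controls included, consisted of transfected cells of this 1 line that received cycloheximide shortly before lysis.

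Cells enter mitosis when CDK1, bound to a B-type cyclin, becomes active. A spindle of microtubules then attaches to the chromosomes at their kinetochores, and the spindle checkpoint holds the cell until every kinetochore is attached. The anaphase-promoting complex next marks securin and the B-type cyclins for destruction, separase cuts the ring that holds sister chromatids together, and the midzone of the spindle guides the division of the cytoplasm. Many of these genes are transcribed together late in the cell cycle. Their mRNAs rise in G2, so that their level in bulk RNA of a growing culture is often read as a sign of how many cells divide. In such bulk samples, fewer cells in G2 or mitosis and less of these mRNAs per cell cannot be told apart.

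Promoters of genes of this kind often hold a CCAAT box, bound by the factor NF-Y, and a cell cycle genes homology region (CHR), bound by complexes that keep the genes silent early in the cycle. The letters TTTGAA of the CHR and CCAAT were searched on both strands in the RefSeq promoters of GRCh38.p14, which run from 250 bases before to 50 bases after a gene's start. These coordinates belong to another build than the hg19 of the counts. Of the 40 genes, 33 had a promoter in the table, and AURKA, BIRC5, BUB3, FOXM1, TPX2, TTK and UBE2C had none. TTTGAA was found in 23 of the 33 (69.7%), against 15.4% of the 27305 promoters in all, taking the first listed of each gene. CCAAT was found in 25 (75.8%), against 35.7% of all promoters, and both in 19 (57.6%), against 6.08%. A match is a description of letters and not of a bound site. The promoters of CCNB1, PLK1, CDC20 and TOP2A are shown because these genes are followed library by library below. Capitals mark CCAAT or TTTGAA on either strand. They lie at chr5:69166900-69167199, plus strand, at chr16:23678639-23678938, plus strand, at chr1:43358731-43359030, plus strand and at chr17:40417847-40418146, minus strand.
CCNB1: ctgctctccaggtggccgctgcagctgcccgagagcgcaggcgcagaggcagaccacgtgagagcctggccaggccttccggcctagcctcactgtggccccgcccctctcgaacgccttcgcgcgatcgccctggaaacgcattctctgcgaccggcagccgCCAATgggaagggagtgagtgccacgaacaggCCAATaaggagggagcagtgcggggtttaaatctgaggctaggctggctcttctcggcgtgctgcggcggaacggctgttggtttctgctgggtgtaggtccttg
PLK1: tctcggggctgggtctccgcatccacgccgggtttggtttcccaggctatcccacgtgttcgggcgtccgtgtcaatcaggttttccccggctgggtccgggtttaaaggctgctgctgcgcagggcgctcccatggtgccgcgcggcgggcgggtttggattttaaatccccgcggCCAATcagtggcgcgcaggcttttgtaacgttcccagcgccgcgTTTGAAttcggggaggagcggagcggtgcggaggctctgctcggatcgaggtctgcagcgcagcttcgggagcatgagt
CDC20: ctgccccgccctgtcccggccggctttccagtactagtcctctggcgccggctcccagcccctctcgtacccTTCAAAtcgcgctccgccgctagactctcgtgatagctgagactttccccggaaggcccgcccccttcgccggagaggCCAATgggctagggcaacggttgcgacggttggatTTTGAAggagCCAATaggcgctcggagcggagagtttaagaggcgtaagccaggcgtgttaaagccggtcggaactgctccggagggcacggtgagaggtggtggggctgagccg
TOP2A: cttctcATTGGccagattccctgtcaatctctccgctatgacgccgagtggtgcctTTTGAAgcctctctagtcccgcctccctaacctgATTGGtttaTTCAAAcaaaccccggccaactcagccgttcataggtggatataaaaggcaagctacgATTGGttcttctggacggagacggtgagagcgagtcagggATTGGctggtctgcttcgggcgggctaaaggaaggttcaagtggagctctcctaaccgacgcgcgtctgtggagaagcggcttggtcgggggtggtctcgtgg
The PLK1, CDC20 and TOP2A windows held both sets of letters, whereas that of CCNB1 held CCAAT alone.

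The coding starts of the genes with the 3 highest and the 3 lowest ratios of polysomal to total RNA are shown next, because the GC content of the mRNA ran alongside that ratio. Each line gives the first 60 coding bases of the canonical GENCODE transcript on GRCh37, joined across introns, with G and C in capitals. They begin on the plus strand at chr12 base 53662551 (ESPL1), chr1 base 43824887 (CDC20), chr1 base 45205605 (KIF2C), chr1 base 214787098 (CENPF) and chr3 base 172472321 (ECT2), and on the minus strand at chr4 base 104119476 (CENPE).
ESPL1: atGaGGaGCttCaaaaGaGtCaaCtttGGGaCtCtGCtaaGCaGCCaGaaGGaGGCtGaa
CDC20: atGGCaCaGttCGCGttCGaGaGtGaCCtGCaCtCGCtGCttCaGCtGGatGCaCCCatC
KIF2C: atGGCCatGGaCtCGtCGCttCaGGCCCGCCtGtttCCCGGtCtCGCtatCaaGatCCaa
CENPF: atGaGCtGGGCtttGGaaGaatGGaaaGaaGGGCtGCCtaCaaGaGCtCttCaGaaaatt
CENPE: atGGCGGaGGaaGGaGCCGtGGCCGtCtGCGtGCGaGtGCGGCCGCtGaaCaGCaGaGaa
ECT2: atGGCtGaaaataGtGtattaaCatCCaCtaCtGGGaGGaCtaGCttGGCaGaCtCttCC
Over these 60 bases the GC content was 66.7% in CENPE, the highest of the 6, and 45.0% in CENPF and ECT2. Over the whole of the exons CENPE had 34.8%, the lowest of all 40 genes, and CDC20 57.6%. The start of the coding part therefore does not show the composition of the whole mRNA, and the comparisons below use the whole of the exons.

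Total RNA libraries held 24789280 to 40645263 counts on genes of the table and polysomal libraries 28776634 to 44897501. The siRNA target was at 80.9 to 91.0 CPM, read counts scaled to library size, in total RNA of the 6 siCTRL cultures and at 6.14 to 8.31 CPM in the 6 siLSM14A cultures. Of the melanocyte lineage markers, SOX10, PMEL, DCT, MITF, TYR and S100B were at 70.3 to 912 CPM in total RNA, while MLANA and TYRP1 were at 3.92 to 10.2 CPM. Of the markers of other cell types, PTPRC, CD3E, EPCAM, KRT5 and CDH5 stayed at or under 0.217 CPM, and PECAM1 was not matched. The labels number the replicates 1 to 3 without stating what a number shares, so p-values measure the spread between these samples. In 2 cultures the polysomal library stood apart. Across 12590 genes, Spearman's rho of the log2 ratio of polysomal to total CPM with exon GC content was 0.417 in siLSM14A NT replicate 1 and 0.485 in siCTRL NT replicate 3, and 0.556 to 0.732 in the other 10 cultures.

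In total RNA all 40 genes were expressed, the lowest value of any gene and library being 19.2 CPM. Per kb of canonical transcript, the highest level in siCTRL NT cells was that of PTTG1, which encodes securin, at 173 ± 3.9 CPM per kb (mean ± SD, n = 3). Part of it is uncertain, because the near-identical copy PTTG2 is counted in the same table. UBE2C, the ubiquitin-conjugating enzyme of the anaphase-promoting complex, followed at 100.5 ± 6.7 CPM per kb. Next came cyclin B1 (CCNB1) at 82.6 ± 5.59 and CDC20, the activator of that complex, at 73.5 ± 4.22 CPM per kb. The lowest levels were those of the kinetochore motor CENPE, at 5.23 ± 0.759 CPM per kb, and of separase (ESPL1), at 7.64 ± 0.455 CPM per kb. Securin mRNA was thus far more abundant per length than the mRNA of the protease that securin holds inactive. The exon bases of NUSAP1 and PRC1 overlap other genes of the same strand over 86.8% and 57.6%, those of BUB1B overlap PAK6 and the readthrough gene BUB1B-PAK6 over 10.2% and those of CENPA its neighbour SLC35F6 over 7.1%, and the reads of these 4 genes could be split by the counting.

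**Figure D1:**
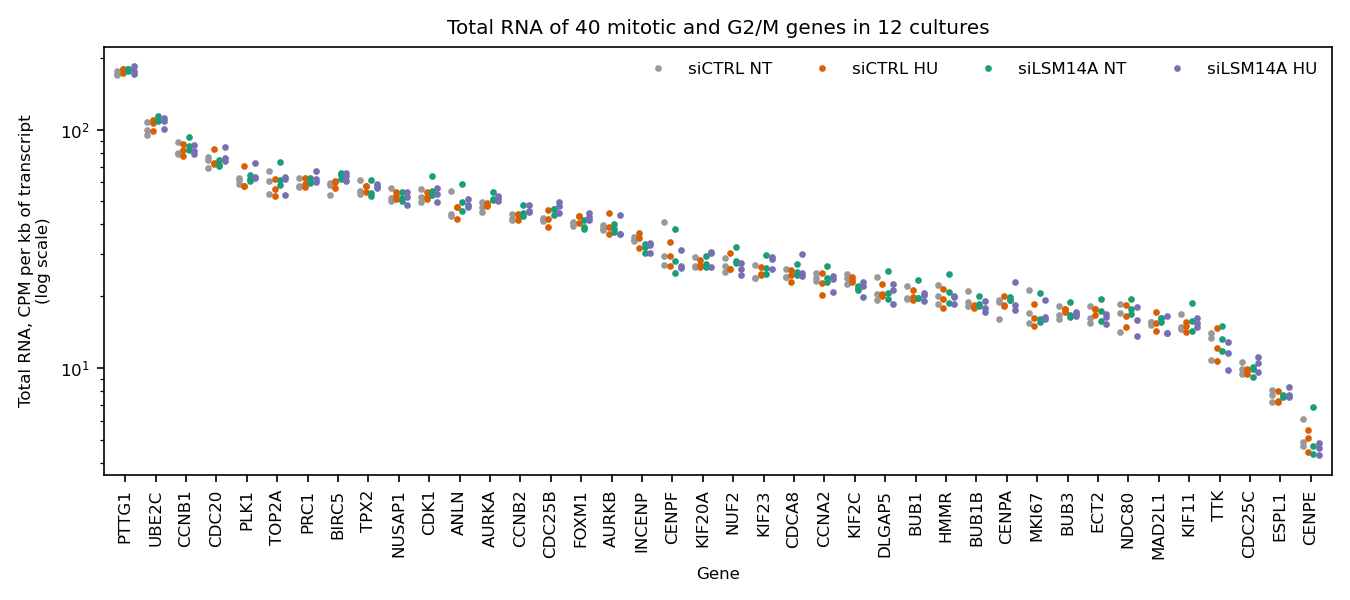
Total RNA of the 40 genes in the 12 cultures, in CPM per kb of canonical transcript on a log axis, with genes ordered by their mean in siCTRL NT cells. Each point is a culture and colours give the condition. Levels run from PTTG1, at 169 to 184 CPM per kb over the 12 cultures, to CENPE, at 4.29 to 6.83 CPM per kb.

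Over the 12 total RNA libraries, the highest level of a gene was 1.09 to 1.64 times its lowest, from PTTG1 to CENPF, with a median of 1.24 over the 40 genes and of 1.28 over 12816 genes. Polysomal RNA varied more. There the highest level was 1.32 times the lowest for BIRC5 and 4.97 times for CENPE, with a median of 1.82 over the 40 genes and of 1.75 over 12618 genes. Around the mean of their condition, the total RNA levels of the 40 genes moved together from culture to culture. The median Pearson's r over the 780 pairs of genes was 0.539 across 12 libraries, and 655 pairs were positive, against a median near 0 (0.0005) over the pairs of 12590 genes. Among the 20 genes of lowest exon GC content the median r was 0.77, among the 20 of highest GC content 0.475, and between these sets 0.399. In polysomal RNA the median was 0.171 over all pairs, 0.58 within the low-GC set, 0.141 within the high-GC set and -0.0225 between them. All of these values share the same libraries and their depth, and the part of base composition in them was not tested.

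Cyclin B1, the regulatory partner of CDK1, was nearly level across the conditions in total RNA. CCNB1 was at 181, 160.4 and 162 CPM in siCTRL NT cells and at 167, 157 and 176 CPM in siCTRL HU cells, replicates 1 to 3. With siLSM14A it was at 173, 167 and 189 CPM without HU and at 160.3, 165 and 175 CPM with HU. The 4 groups overlapped in total RNA. Its polysomal level was 298, 299.5 and 252 CPM in siCTRL NT, 304, 292 and 218 in siCTRL HU, 332, 277 and 318 in siLSM14A NT and 269, 260.3 and 261 CPM in siLSM14A HU cells. In polysomal RNA the 3 siLSM14A HU libraries were all below the 3 siLSM14A NT libraries, with a log2 change of -0.23 ± 0.14 (SE) and an adjusted p of 1.00.

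CDK1, the kinase itself, showed the same flat total level and a lower polysomal one. Total RNA gave 107, 98.1 and 93.5 CPM in siCTRL NT and 98.4, 96.8 and 104 CPM in siCTRL HU cells. In siLSM14A cells total CDK1 was at 104, 100.4 and 121 CPM without HU and 102, 93.9 and 107 CPM with it. These groups overlapped. Polysomal CDK1 was at 67.9, 76.8 and 89.7 CPM in siCTRL NT, 76.1, 58.5 and 68.6 in siCTRL HU, 101, 83.4 and 90.1 in siLSM14A NT and 84.9, 56.7 and 93.5 CPM in siLSM14A HU cells. The polysomal level was under the total level of the same culture in all 12 cultures.

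PLK1, a kinase that acts from mitotic entry to cytokinesis, lay on the other side. Its total level was 136, 132 and 127 CPM in siCTRL NT, 152, 125 and 125 in siCTRL HU, 134, 131 and 139.9 in siLSM14A NT and 157, 136 and 136 CPM in siLSM14A HU cells. The polysomal level was 340.4, 328 and 207 CPM in siCTRL NT, 338, 339 and 277 in siCTRL HU, 279, 322 and 313 in siLSM14A NT and 332, 307 and 276 CPM in siLSM14A HU cells. Replicate 3 of siCTRL NT was the lowest polysomal library and the other 11 lay between 276 and 340.4 CPM. The conditions overlapped in both fractions.

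CDC20, which brings substrates to the anaphase-promoting complex, was at 123, 127 and 113 CPM in total RNA of siCTRL NT cells and at 137, 119.5 and 119 CPM in siCTRL HU cells. Total RNA of siLSM14A cells gave 123, 117 and 116 CPM without HU and 139, 126 and 122 CPM with HU. Replicate 1 of both HU groups was the highest. Polysomal CDC20 was at 337, 376 and 252 CPM in siCTRL NT, 368, 441 and 303 in siCTRL HU, 341, 408 and 347 in siLSM14A NT and 369, 352 and 289.8 CPM in siLSM14A HU cells, again with overlapping groups.

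TOP2A, the topoisomerase that untangles sister chromatids, had the widest polysomal spread of these 5 genes. In total RNA it was at 380.3, 307 and 347 CPM in siCTRL NT, 319.6, 299 and 354 in siCTRL HU, 349, 332 and 416 in siLSM14A NT and 352, 304 and 359 CPM in siLSM14A HU cells. Its polysomal libraries gave 326, 394 and 667 CPM in siCTRL NT, 366, 342 and 457 in siCTRL HU, 679, 356 and 413 in siLSM14A NT and 514, 411 and 694 CPM in siLSM14A HU cells. The highest libraries were siLSM14A HU replicate 3, siLSM14A NT replicate 1 and siCTRL NT replicate 3, and the last 2 are the cultures with the weak GC trend.

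The level in heavy polysomal RNA relative to that in total RNA differed widely between these genes. Each CPM is scaled to its own library, so the ratio is relative to other genes. It is not the share of a gene's mRNA that sits in polysomes. The log2 ratio of polysomal to total CPM, averaged over the 4 conditions, ran from -1.12 for ECT2 to 1.78 for ESPL1, with a median of 0.10 over the 40 genes and of -0.05 over 12590 genes. Polysomal and total RNA were compared within each condition with edgeR's quasi-likelihood F-test, 3 libraries against 3, and a gene was called at an adjusted p under 0.05. The test did not pair the 2 fractions of a culture. In siCTRL NT cells 16 of the 40 genes (40%) were called higher in polysomal RNA, against 31.4% of all genes tested, and 8 (20%) lower, against 32.3%. In siCTRL HU cells 15 (37.5%) were called higher and 11 (27.5%) lower, against 36.2% and 37.4%. In siLSM14A NT cells 16 were called higher and 5 (12.5%) lower, against 32.1% and 32.3%, and in siLSM14A HU cells 20 (50%) higher and 5 lower, against 32.8% and 34.1%. The shares called higher in siCTRL cells were near those of all genes. For siCTRL NT, the 24 calls in all became 15 without replicate 1, 10 without replicate 2 and 31 without replicate 3. On the lower side 3, 0 and 15 genes were called, and on the higher side 12, 10 and 16. For siLSM14A NT, 15 genes were called lower without replicate 1 and 2 without replicate 2 or 3. For siLSM14A HU, 13 genes were called higher without replicate 1, against the 20 with it. With the culture as a block, 15, 14, 14 and 21 of the 40 were higher in siCTRL NT, siCTRL HU, siLSM14A NT and siLSM14A HU. Lower were 10, 12, 8 and 9. Of all genes, 3817 of 12431, 4488 of 12479, 3718 of 12528 and 4163 of 12377 were then higher. The matching numbers lower were 4107, 4716, 3848 and 4459.

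Some genes were called in the same direction in all 4 conditions, and the matching share of all genes is not given here. In single conditions 31.4% to 36.2% of all genes were called higher and 32.3% to 37.4% lower. The 13 that were higher in polysomal RNA each time were AURKB, CCNB1, CDC20, CDC25B, CDC25C, CDCA8, ESPL1, KIF20A, KIF2C, PLK1, PTTG1, TPX2 and UBE2C. The 4 that were lower each time were CENPA, ECT2, FOXM1 and NUF2. Without replicate 2 of siCTRL NT, 10 of the 40 genes were called higher and 0 lower in that condition. The 2 lists therefore do not hold in full without that culture. Another 17 were called in 1 to 3 conditions, and ANLN, BIRC5, CCNA2, CCNB2, KIF11 and MKI67 in 0. The order of the 40 ratios was much the same in every condition, with Spearman's rho of 0.908 to 0.981 between pairs of conditions over 40 genes, which share their sequence and base composition in each.

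**Figure D2:**
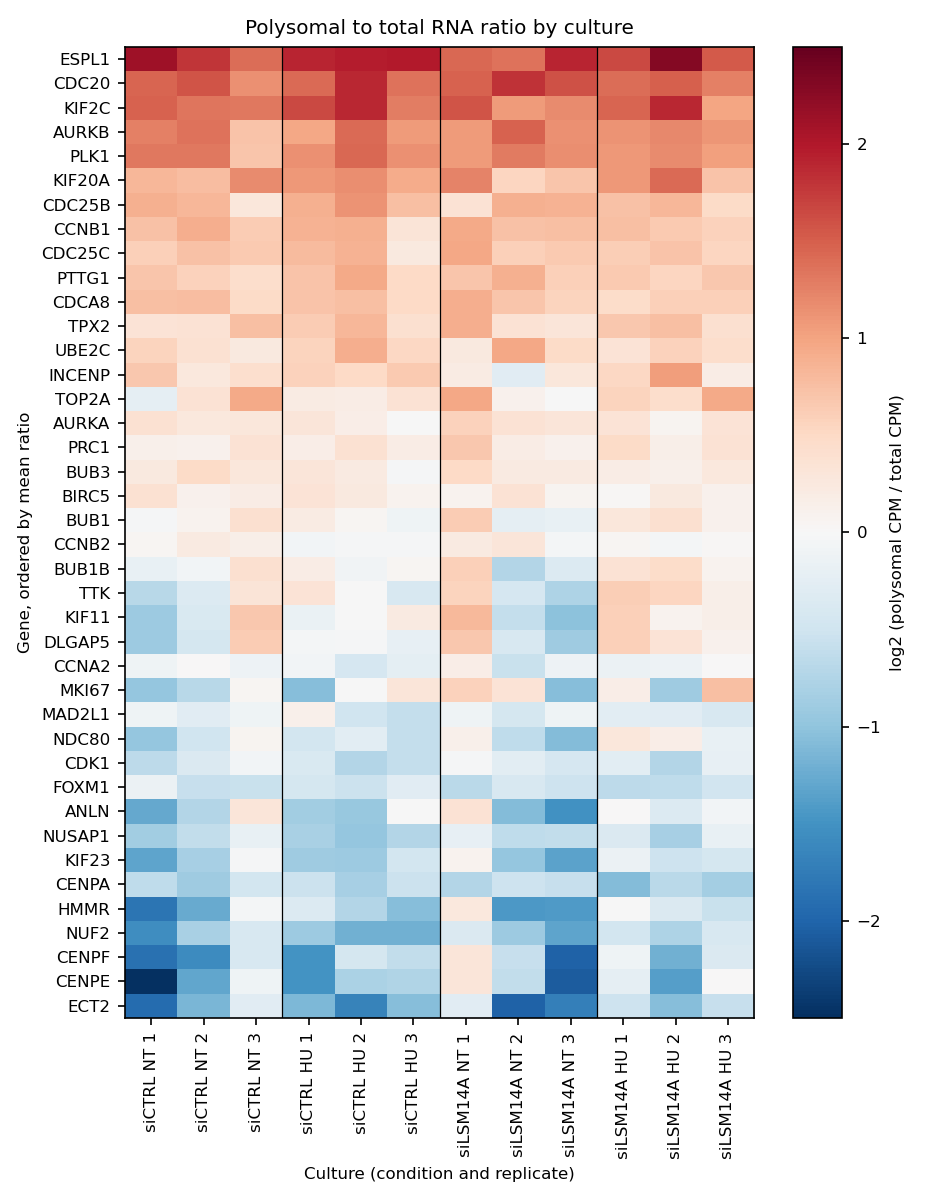
Log2 ratio of polysomal to total CPM for the 40 genes (rows, ordered by their mean ratio) in the 12 cultures (columns, grouped by condition). Red is above 0 and blue below. ESPL1, CDC20 and KIF2C are above 0 in every culture, while the 20 genes of lowest GC content have medians of 0.18 and 0.33 in siCTRL NT replicate 3 and siLSM14A NT replicate 1, against -0.83 to 0.10 in the other cultures.

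The genes of anaphase stood highest. ESPL1, whose product separase cuts cohesin, had log2 ratios of 2.13, 1.79 and 1.40 in siCTRL NT, 1.90, 1.96 and 1.98 in siCTRL HU, 1.44, 1.36 and 1.90 in siLSM14A NT and 1.64, 2.29 and 1.54 in siLSM14A HU cultures. The fitted log2 difference between fractions was 1.81 ± 0.19 (SE) in siCTRL NT and 1.96 ± 0.10 in siCTRL HU cells, with adjusted p of 0.00032 and 1.66e-06. CDC20 followed with ratios of 1.45, 1.57 and 1.15 in siCTRL NT, 1.42, 1.88 and 1.35 in siCTRL HU, 1.48, 1.81 and 1.58 in siLSM14A NT and 1.40, 1.49 and 1.25 in siLSM14A HU cultures. PTTG1 and UBE2C had mean ratios of 0.66 and 0.52, so that all 4 genes of this role were higher in polysomal RNA in all 4 conditions.

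At mitotic entry the genes split. PLK1, CDC25B, CCNB1 and CDC25C had mean log2 ratios of 1.16, 0.74, 0.73 and 0.66 and were higher in polysomal RNA in every condition. CDC25B and CDC25C encode the phosphatases that activate CDK1. AURKA, a kinase of the spindle poles, was at 0.28 and was called higher in 2 conditions. The cyclins CCNB2 and CCNA2 were at 0.06 and -0.14 and were called in none. CDK1 was at -0.39, called lower in 2 conditions, and FOXM1, the transcription factor of G2 genes, at -0.49, called lower in 4. CDK1 and cyclin B1, whose products form 1 complex, stood on opposite sides without GC correction, at -0.35 ± 0.13 (SE) and 0.76 ± 0.11 in siCTRL NT cells. With it both were higher in polysomal RNA in all 4 conditions, with means of 0.62 and 1.15.

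Of the chromosomal passenger complex, which corrects wrong attachments of chromosomes, its kinase AURKB had a mean ratio of 1.16 and CDCA8, the subunit borealin, 0.65, both higher in every condition. The scaffold INCENP was at 0.42, called higher in 3 conditions. BIRC5, the subunit survivin, was at 0.19 and was called in none. These values are without GC correction. With it the means were 0.61 for AURKB, 0.42 for CDCA8, -0.26 for INCENP and 0.01 for BIRC5. INCENP was then called higher in 0 conditions and lower in 1.

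Without correction for GC content, the spindle checkpoint genes had ratios close to 0. Mean ratios were 0.25 for BUB3, 0.13 for BUB1, 0.06 for BUB1B, -0.01 for the kinase TTK and -0.25 for MAD2L1, and none of the 5 was called in the same direction in all 4 conditions. With the GC correction described below, their means were 0.83, 0.73, 0.50, 0.58 and 0.49, and BUB3, BUB1 and MAD2L1 were higher in all 4. Without the correction, the spindle assembly genes ran from 0.56 for TPX2, the activator of AURKA, to -0.73 for HMMR. The motor KIF11 and DLGAP5 were each at -0.05, and NUSAP1 was at -0.59. TPX2 alone of these was then called in all 4 conditions. TOP2A and the proliferation marker MKI67 were at 0.40 and -0.21. With the correction, means were 0.69 for TPX2, 0.57 for KIF11, 0.71 for DLGAP5, -0.56 for NUSAP1 and 0.07 for HMMR. TOP2A and MKI67 were at 1.09 and -0.10. TPX2, DLGAP5 and TOP2A were then higher in all 4.

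Genes of the centromere and kinetochore stood lowest of the roles without GC correction, with a median ratio of -0.77 over 6 genes, and at a median of 0.06 with it. The corrected means of CENPE and NDC80 were above 0, at 0.18 and 0.31. The exception was KIF2C, a motor that takes microtubules apart, at 1.42. It had ratios of 1.47, 1.34 and 1.33 in siCTRL NT, 1.64, 1.88 and 1.28 in siCTRL HU, 1.57, 1.06 and 1.18 in siLSM14A NT and 1.46, 1.89 and 0.99 in siLSM14A HU cultures. CENPE, with a mean ratio of -0.91, had ratios of -2.50, -1.30 and -0.12 in siCTRL NT, -1.49, -0.78 and -0.75 in siCTRL HU, 0.30, -0.61 and -2.07 in siLSM14A NT and -0.22, -1.38 and 0.00 in siLSM14A HU cultures. Its replicates differed widely within every condition, and it was called lower in 1 condition. CENPF, a large protein of the outer kinetochore, was at -0.87 and was called lower in 2. It had ratios of -1.87, -1.58 and -0.39 in siCTRL NT, -1.50, -0.45 and -0.62 in siCTRL HU, 0.29, -0.58 and -2.03 in siLSM14A NT and -0.11, -1.20 and -0.37 in siLSM14A HU cultures. NUF2 and NDC80, partners in the complex that grips microtubules, were at -0.86 and -0.33, called lower in 4 and in 1 conditions. CENPA, the histone H3 variant of centromeres, was at -0.69 and was lower in 4.

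Of the midzone and cytokinesis genes, KIF20A, a motor of the midzone, was at 0.97 and higher in 4 conditions, and PRC1, which bundles microtubules there, at 0.27 and higher in 3. ANLN and KIF23 were at -0.52 and -0.64. ECT2, the exchange factor that switches on RhoA for the contractile ring, had the lowest mean of all 40 without GC correction. Its ratios were -1.93, -1.15 and -0.28 in siCTRL NT, -1.13, -1.68 and -1.07 in siCTRL HU, -0.28, -2.03 and -1.72 in siLSM14A NT and -0.52, -1.06 and -0.58 in siLSM14A HU cultures. Its fitted difference was -1.26 ± 0.15 (SE) in siCTRL HU and -0.69 ± 0.17 in siLSM14A HU cells, with adjusted p of 3.27e-05 and 0.00577. With GC correction the mean of ECT2 was -0.33, called lower in 1 condition, and FOXM1 and CENPA stood lower, at -0.89 and -0.72. The corrected means of ANLN, KIF23, KIF20A and PRC1 were 0.13, -0.02, 0.99 and 0.37.

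The ratio ran alongside the GC content of the exons. Across the 40 genes Spearman's rho was 0.703 and Pearson's r 0.688, and across 12590 genes rho was 0.674, so the 40 genes were near the transcriptome as a whole in this respect. Genes are not independent replicates, and all points share the same libraries. For the coding part alone rho was 0.638 over the 40 genes and 0.594 over all genes. For the last base of its codons it was 0.596 and 0.591, and for the 5′ leader 0.15 and 0.19. For the 3′ tail it was 0.37 over the 40 genes, below the 0.644 over all genes. The length of the coding part gave -0.194 and -0.0145. Median exon GC content was 54.4% in the genes of anaphase and 53.5% in the passenger complex, against 39.8% in the centromere and kinetochore genes and 40.3% in those of the midzone.

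**Figure D3:**
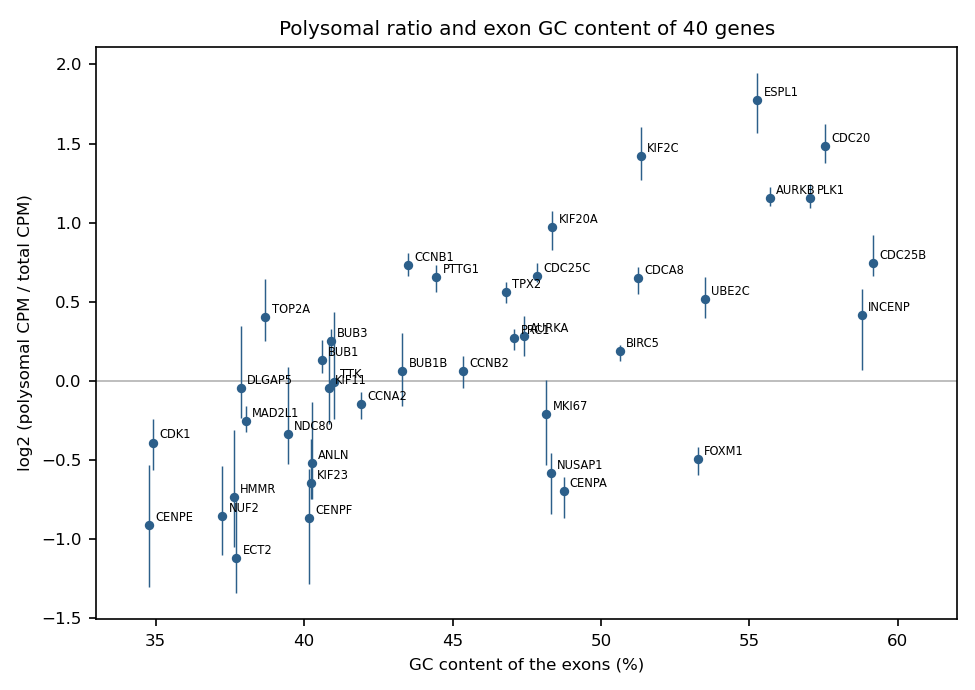
Mean log2 ratio of polysomal to total CPM (y axis) against the GC content of the exons in percent (x axis) for the 40 genes. Points are means of 4 conditions and bars span the lowest to the highest condition mean. High-GC genes such as CDC20 and PLK1 lie at the upper right, ECT2 and CENPE at the lower left, and FOXM1 lies low for its GC content of 53.3%.

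When a curve of each library's levels on GC content was taken out, the calls shifted. In siCTRL NT, siCTRL HU, siLSM14A NT and siLSM14A HU cells 22, 24, 20 and 26 of the 40 genes were then called higher. Called lower were 4, 4, 4 and 2. Of all genes, 3234 of 12431, 3470 of 12479, 3428 of 12528 and 3503 of 12377 were higher. The matching numbers lower were 3555, 3633, 3506 and 3705. In all 4 conditions 19 of the 40 genes were higher in polysomal RNA and 2 lower, and the matching share of all genes is not given here. Called both ways were AURKB, CCNB1, CDC20, CDC25C, CDCA8, ESPL1, KIF20A, KIF2C, PLK1, PTTG1 and TPX2 on the higher side and CENPA and FOXM1 on the lower. The 8 that were higher in all 4 conditions only after the correction were BUB1, BUB3, CCNB2, CDK1, DLGAP5, MAD2L1, PRC1 and TOP2A. ESPL1 kept a mean of 1.26, CDC20 of 0.84 and KIF2C of 1.19 on the corrected log2 scale, whereas CDC25B was at 0.04 and UBE2C at 0.10, each called in 0 conditions. NUF2, at -0.07, was also called in 0. Calls changed direction for CDK1, INCENP, MAD2L1 and NDC80, with CDK1 at 0.62 and higher in all 4 conditions. CENPA and FOXM1 had corrected means of -0.72 and -0.89. Whether GC content itself or a step of the library preparation underlies the trend was not tested.

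The comparisons of conditions asked whether HU, the loss of LSM14A or both together altered these mRNAs, in total RNA, in polysomal RNA and in translation efficiency (TE), the change of the polysomal level over and above that of the total level. Of the 40 genes, 0 were called at an adjusted p under 0.05 in any of the 15 comparisons by edgeR's quasi-likelihood F-test, and 0 by DESeq2. Genes past an unadjusted p under 0.05 are counted below for edgeR. Standard errors set what could be seen: their median over the 40 genes was 0.06 to 0.07 (log2) in total RNA of 2 conditions, 0.16 to 0.20 in polysomal RNA and 0.19 to 0.24 in TE. The comparisons share groups, siCTRL NT and the others each entering several of them, and are not independent.

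HU in siCTRL cells gave no call among the 40 genes. Of all genes, 0% were called in total RNA, polysomal RNA and TE alike without a block. The replicate number was also used as a block, a pairing read from these same data. With it 0.12% of all genes were called in total RNA and 0.00812% in polysomal RNA, and again 0 of the 40. At an unadjusted p under 0.05, 1 of the 40 (2.5%) passed with the block in each fraction, against 4.01% and 10.3% of all genes. Without the block, log2 changes of the 40 in total RNA ran from -0.12 to 0.08 with a median of 0.00, and 0 of the 40 passed an unadjusted p under 0.05, against 1.44% of all genes. FOXM1 and UBE2C had the smallest p among positive changes, at 0.08 ± 0.05 (SE) and 0.06 ± 0.06, and BUB1B and MKI67 among negative ones, at -0.09 ± 0.06 and -0.11 ± 0.10. Polysomal RNA gave 0 as well, against 2.1% of all genes, with UBE2C at 0.32 ± 0.18, CDC25B at 0.24 ± 0.19, NUSAP1 at -0.29 ± 0.18 and CCNA2 at -0.24 ± 0.18. For TE the count was 0 against 2.31%, led by UBE2C at 0.27 ± 0.19 and KIF2C at 0.24 ± 0.18 above 0, and by NUSAP1 at -0.29 ± 0.19 and CCNB2 at -0.18 ± 0.13 below it. Groups of 3 libraries did not overlap for 0 genes in total RNA (5.32% of all genes), for CCNA2 and CCNB2 in polysomal RNA (5.0% of the 40 against 7.51%) and for CCNB2 in TE (2.5% against 7.33%), all lower with HU. Across all genes the TE change had a Spearman's rho of 0.55 with exon GC content.

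HU in siLSM14A cells gave a similar picture, with 0% of all genes called in each of the 3 measures. In total RNA NUF2 and TTK were past an unadjusted p under 0.05, which is 5.0% of the 40 against 5.2% of all genes. Their log2 changes were -0.17 ± 0.07 (SE) and -0.23 ± 0.10, both with an adjusted p of 0.855, while FOXM1 and CDC20 led the positive changes at 0.12 ± 0.06 and 0.12 ± 0.06. NUF2 was at 55.0, 54.2 and 63.0 CPM without HU and at 51.0, 48.2 and 53.9 CPM with it, and its 2 groups did not overlap. In polysomal RNA INCENP alone was past an unadjusted p under 0.05 (2.5% against 0.871%), at 0.55 ± 0.23, followed by ESPL1 at 0.31 ± 0.21. CCNB1 and CENPA were lowest by p, at -0.23 ± 0.14 and -0.26 ± 0.16. Polysomal INCENP was at 144, 112 and 161 CPM without HU and at 199, 276 and 142 CPM with it, and these groups overlapped. For TE 0 genes were past an unadjusted p under 0.05 (1.41% of all genes), with INCENP at 0.54 ± 0.26, NDC80 at 0.53 ± 0.31, CENPA at -0.28 ± 0.17 and CDC20 at -0.25 ± 0.16. Groups did not overlap for FOXM1 (higher) and NUF2 (lower) in total RNA, against 11.9% of all genes, for CCNB1 and CENPA (lower) in polysomal RNA, against 5.85%, and for 0 genes in TE, against 5.83%.

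A single culture bore on the TE result. Without siLSM14A NT replicate 1, whose ratios had the weakest GC trend, ANLN, the scaffold of the contractile ring, was called at a log2 TE change of 1.18 ± 0.20 (SE) and an adjusted p of 0.0447. ANLN is named because of this call and was chosen after its values were seen. The share of all genes called without that culture is not given here, so the call is not read as particular to ANLN. Its log2 ratios were 0.36, -1.08 and -1.52 in siLSM14A NT and 0.00, -0.35 and -0.06 in siLSM14A HU cultures, and with all cultures the TE change was 0.46 ± 0.42 with an adjusted p of 1.00. The high value of replicate 1 is shared by other low-GC genes of that culture, where the median ratio of the 20 low-GC genes was 0.33, against -0.57 and -0.83 in replicates 2 and 3.

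Loss of LSM14A without HU gave no call among the 40 genes in total RNA, against 0.566% of all genes called. Past an unadjusted p under 0.05 were 6 genes (15% against 10.8% of all genes). BIRC5 was at 0.17 ± 0.06 (SE), with an adjusted p of 0.325, and AURKA at 0.14 ± 0.06, while KIF2C was at -0.14 ± 0.06 and INCENP at -0.12 ± 0.05. The other two were CDC25B and UBE2C, at 0.12 ± 0.05 and 0.14 ± 0.06. Total BIRC5 was at 151, 154 and 137 CPM in siCTRL NT and at 169.6, 160.3 and 167 CPM in siLSM14A NT cells. INCENP was at 146, 142 and 140.0 CPM and 125, 136 and 133 CPM in the same groups. The groups of both genes did not overlap, which held for these 6 genes in all (15% against 17.3% of all genes). The estimates of BIRC5 and INCENP, both of the passenger complex, had opposite signs, but neither gene was called. Groups that did not overlap were as common among all genes, and a difference within the complex was not tested.

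In polysomal RNA of the same cells 0.0162% of all genes were called. INCENP alone of the 40 passed an unadjusted p under 0.05 (2.5% against 1.96%), at -0.50 ± 0.19 (SE) with an adjusted p of 1.00. Its polysomal level was 232, 170.3 and 188 CPM in siCTRL NT and 144, 112 and 161 CPM in siLSM14A NT cells, without overlap. KIF2C followed at -0.24 ± 0.18, and AURKA and UBE2C led the positive changes at 0.24 ± 0.14 and 0.32 ± 0.19. Groups did not overlap for AURKA and INCENP (5.0% against 6.53% of all genes). For TE 0% of all genes were called, 0 of the 40 passed an unadjusted p under 0.05 (against 0.87%) and 0 did not overlap (against 3.42%). MKI67 and CDC20 were at 0.53 ± 0.40 and 0.22 ± 0.19, INCENP and ESPL1 at -0.38 ± 0.19 and -0.23 ± 0.25.

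Loss of LSM14A under HU gave calls for CDC25B and KIF23 in total RNA when same-numbered cultures were paired, a share of the 40 genes no larger than that of all genes. Without a block, 0 of the 40 were called, against 0.802% of all genes, and CDC25B and KIF23 passed an unadjusted p under 0.05 (5.0% against 8.54%). Same-numbered cultures of siLSM14A HU and siCTRL HU deviated together in total RNA, but in polysomal RNA the correlation was 0.04 for replicate 1. The labels do not state that these cultures were paired. With the replicate number as a block, CDC25B was called at 0.16 ± 0.04 (SE, adjusted p = 0.0104) and KIF23 at 0.14 ± 0.04 (adjusted p = 0.0395). These 2 are 5.0% of the 40, against 6.85% of all genes called with the block. CDC25B was at 143, 122 and 131 CPM in siCTRL HU and 155, 139 and 149 CPM in siLSM14A HU cells, replicates 1 to 3, higher in each of the 3 pairs. KIF23, a motor of the midzone, was at 96.7, 90.8 and 89.9 CPM and 107, 95.2 and 105 CPM, again higher in each pair. Between siLSM14A NT and siCTRL NT the unblocked total RNA change was 0.12 ± 0.05 for CDC25B and 0.11 ± 0.08 for KIF23. With block and GC correction together, CDC25B, KIF23 and INCENP were called, at 0.14, 0.16 and -0.13, which is 7.5% of the 40 against 5.04% of all genes. KIF2C and ECT2 were lowest by p without the block, at -0.13 ± 0.06 and -0.11 ± 0.06. Unpaired groups did not overlap for ANLN, AURKA and CCNB2 (higher) and BUB3 and KIF2C (lower), which is 12.5% of the 40 against 14.9% of all genes.

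In polysomal RNA of HU-treated cells, 0.0653% of all genes were called between siLSM14A and siCTRL, all of them lower, and 0 of the 40. Past an unadjusted p under 0.05 were 7 of the 40, all higher with siLSM14A (17.5% against 4.99% of all genes in either direction). They were KIF23, NDC80, DLGAP5, NUF2, TOP2A, ECT2 and HMMR, and across all genes this change had a Spearman's rho of -0.63 with exon GC content. After GC correction 2 of the 40 passed (5.0%), against 4.19% of all genes. KIF23 and NDC80 led at 0.54 ± 0.18 (SE) and 0.47 ± 0.15, with an adjusted p of 0.739. KIF2C and UBE2C were at -0.27 ± 0.19 and -0.18 ± 0.15. Polysomal KIF23 was at 51.9, 48.7 and 65.8 CPM in siCTRL HU and 96.8, 66.2 and 77.7 CPM in siLSM14A HU cells. NDC80 was at 25.7, 26.1 and 25.9 CPM and 41.0, 32.7 and 33.5 CPM. Neither gene overlapped between the groups, which held for CCNB2, DLGAP5, KIF23, NDC80, NUF2 and TTK on the higher side and CENPA on the lower (17.5% against 9.52%).

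For TE under HU 0% of all genes were called, and 5 of the 40 passed an unadjusted p under 0.05, all higher with siLSM14A (12.5% against 3.85% in either direction). They were NDC80 at 0.54 ± 0.18 (SE), NUF2 at 0.58 ± 0.20, DLGAP5 at 0.47 ± 0.17, ECT2 at 0.58 ± 0.24 and TTK at 0.47 ± 0.20, with an adjusted p of 0.778 each. This fit did not pair the 2 fractions of a culture. With the culture as a block in the edgeR test, the changes of NDC80 and NUF2 were 0.53 ± 0.17 and 0.57 ± 0.16. Those of DLGAP5, ECT2 and TTK were 0.45 ± 0.15, 0.58 ± 0.21 and 0.46 ± 0.20, and the adjusted p was 0.681 for each of the 5. Without the block, CDC25B and CENPA were lowest by p, at -0.23 ± 0.15 and -0.23 ± 0.17. The log2 ratio of NDC80 was -0.45, -0.27 and -0.59 in siCTRL HU and 0.29, 0.17 and -0.19 in siLSM14A HU cultures. That of NUF2 was -0.90, -1.21 and -1.19 and -0.46, -0.77 and -0.39. Both separated the groups, as did DLGAP5, ECT2 and TOP2A (12.5% against 10.6% of all genes), while TTK overlapped. These 5 genes have 37.2% to 41.0% GC in their exons, and across all 12649 genes tested the TE change had a Spearman's rho of -0.64 with exon GC content. After GC correction the changes were 0.31 ± 0.17 for NDC80, 0.30 ± 0.11 for NUF2, 0.20 ± 0.16 for DLGAP5, 0.31 ± 0.15 for ECT2 and 0.29 ± 0.19 for TTK, each with an adjusted p of 1.00, and 2 of the 40 passed an unadjusted p under 0.05 (5.0% against 2.1% of all genes).

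**Figure D4:**
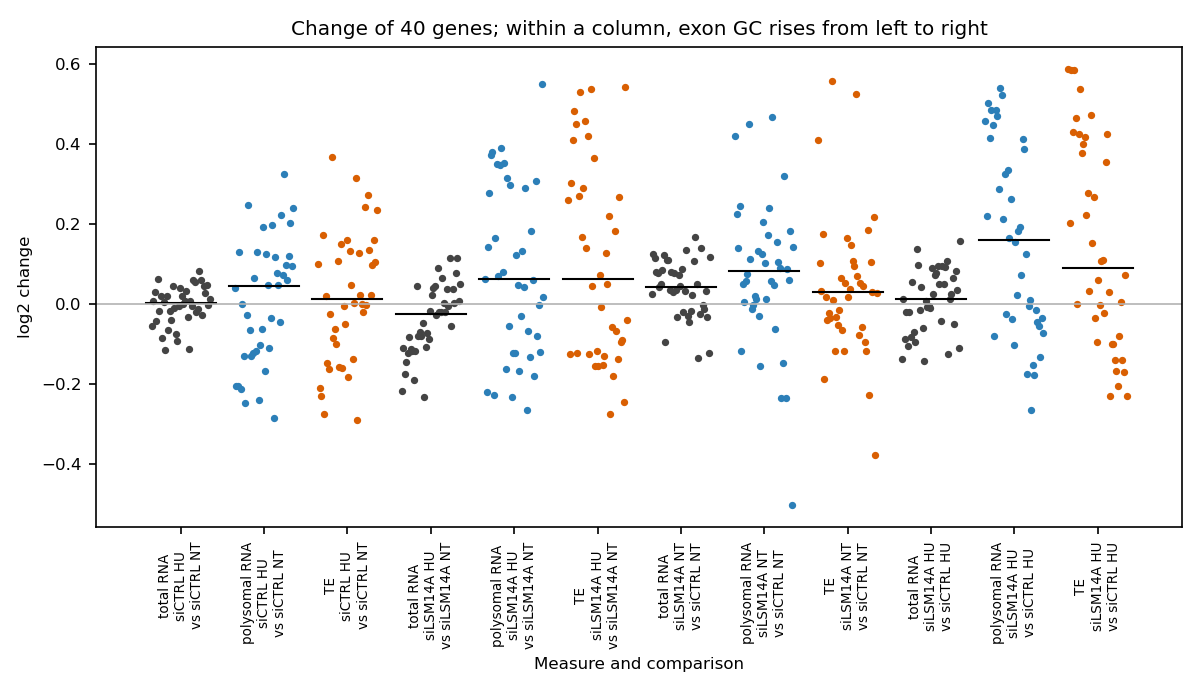
Log2 change of the 40 genes (points) in total RNA (dark grey), polysomal RNA (blue) and TE (orange) for the 4 comparisons of 2 conditions, with the median as a black line and, within each column, exon GC content rising from left to right. Total RNA changes stay between -0.23 and 0.17, polysomal and TE changes between -0.50 and 0.59, and under siLSM14A HU against siCTRL HU most low-GC genes lie above most high-GC genes in polysomal RNA and TE.

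**Figure D5:**
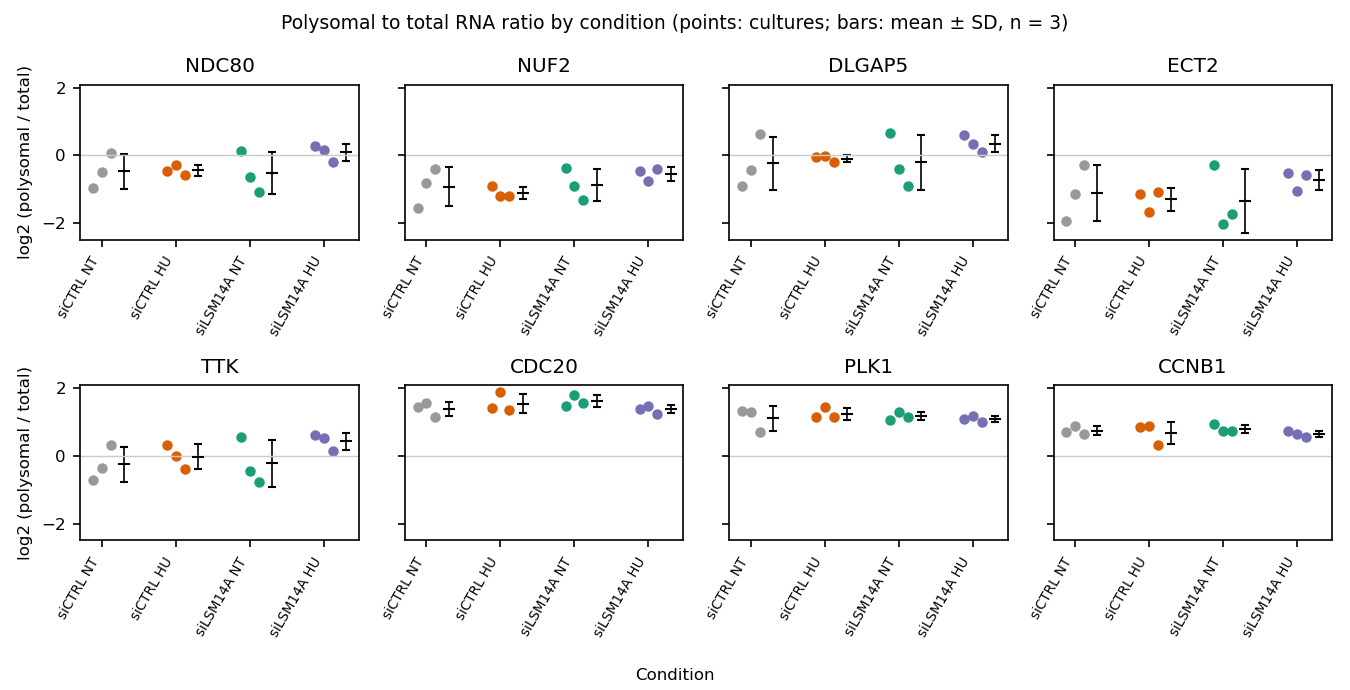
Log2 ratio of polysomal to total CPM for 8 genes in the 4 conditions, 1 panel per gene. Points are cultures, in the order of replicates 1 to 3, and bars give the mean ± SD (n = 3). The lowest value of CDC20 is 1.15 and that of PLK1 0.70, whereas NDC80, DLGAP5 and TTK lie on both sides of 0 among the cultures of each untreated group.

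The difference of the HU effect between siLSM14A and siCTRL cells was tested as an interaction over both siRNAs. Of all genes, 0% were called in each measure. Past an unadjusted p under 0.05 were 0 of the 40 in total RNA, against 2.9% of all genes, 0 in polysomal RNA, against 1.07%, and 0 in TE, against 1.9%. In total RNA CDC25C and KIF20A were at 0.12 ± 0.10 (SE) and 0.07 ± 0.09, NUF2 and ECT2 at -0.20 ± 0.11 and -0.18 ± 0.11. In polysomal RNA INCENP and BUB1B were at 0.48 ± 0.30 and 0.44 ± 0.37, UBE2C and CENPA at -0.48 ± 0.25 and -0.31 ± 0.21. In TE NUF2 and INCENP were at 0.54 ± 0.40 and 0.44 ± 0.33, CDC20 and UBE2C at -0.40 ± 0.28 and -0.40 ± 0.28.

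Calls were as rare in the wider set of cell cycle genes. Of 89 other G2/M and mitotic genes (subunits of the anaphase-promoting complex, condensins, further kinetochore and spindle genes), 1 was called in the 15 comparisons of conditions. WEE1, the kinase that holds CDK1 inactive, was higher in total RNA of siLSM14A NT than of siCTRL NT cells, at 0.32 ± 0.06 (SE) and an adjusted p of 0.0341. Of 20 G1/S genes 0 were called. In the comparison that called WEE1, 0.566% of all genes were called. At an unadjusted p under 0.05, 9 of the 89 passed in that comparison (10.1% against 10.8% of all genes), 7 higher and 2 lower. In total RNA of siLSM14A HU against siLSM14A NT 17 passed (19.1% against 5.2%), 2 higher and 15 lower, and across all genes this change had a Spearman's rho of 0.55 with exon GC content. Between fractions, the 89 genes had median log2 differences of -0.32 to -0.14 over the 4 conditions and the 20 G1/S genes of 0.54 to 0.63, beside 0.06 to 0.28 for the 40 genes and -0.05 to -0.03 for all genes. In siCTRL NT cells 24 of the 89 were higher and 30 lower in polysomal RNA, and 15 of the 20 G1/S genes higher and 1 lower. Of all genes, 31.4% were higher in these cells and 32.3% lower. By p, NCAPD2, a condensin subunit, and the motors KIF4A and KIF22 led the higher side there, at 1.57 ± 0.13, 1.11 ± 0.11 and 1.30 ± 0.14 (SE). MIS12 of the kinetochore, GAS2L3 and the phosphatase CDKN3 led the lower side, at -1.17 ± 0.12, -1.46 ± 0.17 and -1.02 ± 0.13.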

How the data were processed

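Total RNA and heavy polysomal RNA (gradient fractions of mRNAs with many ribosomes) of 12 melanoma cell cultures were sequenced as stranded, poly(A)-selected libraries. The authors aligned the reads with STAR 2.6.1a to hg19 and deposited 1 table of raw read counts per gene for the 24 libraries, with replicates kept apart and no normalization. The study's own translation test, Xtail, was not used here. Ensembl IDs were named from the GENCODE lift-over annotation on GRCh37, in which 708 IDs had no entry and 551 were not protein-coding genes. These were left out, and 0 columns of the table were unused.

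Protein-coding genes passing filterByExpr (minimum count 10, minimum total 15) were tested with edgeR 4.0.16 (TMM, quasi-likelihood F-test, R 4.3.3), and p-values were Benjamini-Hochberg adjusted over all genes tested, with a threshold of 0.05. Each comparison used the libraries of the conditions it names. TE was the interaction of fraction and condition. A standard error is the absolute log2 change divided by the square root of F. Levels are CPM with TMM factors over all 24 libraries. Alternatives were DESeq2 1.42.0, other size factors, no filter, all genes, 1 fit of all libraries, offsets from a loess curve (span 0.3) of log2 CPM on exon GC content, replicate blocks, and leaving out each replicate. The code was tested on simulated data.

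Samples with the same replicate number were compared by the correlation of their deviations from the condition means, on log2(CPM + 0.5). Each r was over 0.1 in total RNA of siLSM14A HU and siCTRL HU (0.47, 0.22 and 0.41 for replicates 1 to 3). The same held in total RNA of siCTRL HU and siCTRL NT (0.33, 0.37 and 0.25) and in polysomal RNA of that pair (0.32, 0.28 and 0.55). It did not hold in the other pairs of conditions. In polysomal RNA of siLSM14A HU and siCTRL HU r was 0.04, 0.39 and 0.53. In total RNA of siLSM14A NT and siCTRL NT it was -0.35, 0.38 and -0.26. The labels do not state what a number shares, so the pairing was read from these same data. Replicates of 1 condition differed beyond sampling noise in all 24 pairs (chi-square per gene 6.01 to 120).

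Members and lists were chosen with earlier results of these data known. Named are, in comparisons without a call, the 2 genes of smallest p in each direction. Between fractions these are the 3 highest and 3 lowest ratios, and from the other G2/M genes up to 3 called genes in each direction. Values in every library are given for called genes and for CCNB1, CDK1, PLK1, CDC20 and TOP2A. Other genes described by library were chosen after their values were seen. Depth was 24789280 to 40645263 counts in total RNA and 28776634 to 44897501 in polysomal RNA.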

Additional observations from a re-analysis of the deposited data

How the results depend on the processing

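The count of called genes was 0 in the 15 comparisons of conditions and stayed at 0 in 122 of 124 alternatives that kept every library and in 107 of 108 that left out a replicate. The exceptions were total RNA of siLSM14A HU against siCTRL HU, with 2 genes called under the replicate block and 3 under the replicate block with GC correction, and TE of siLSM14A HU against siLSM14A NT, with a range of 0 to 1 over the replicates left out. The replicate block changed no other call between conditions. Between fractions, the counts of both directions together stayed within 1.5 times in 32 of 32 alternatives and in 10 of 12 that left out a replicate. The count for siCTRL NT ranged from 10 to 31. These sums hide shifts between directions. With GC correction, siCTRL NT went from 16 higher and 8 lower to 22 and 4, and siCTRL HU from 15 and 11 to 24 and 4. Similarly, siLSM14A NT went from 16 and 5 to 20 and 4, and siLSM14A HU from 20 and 5 to 26 and 2. For CCNB1, CDK1, PLK1, CDC20 and TOP2A and the genes of highest and lowest ratio, GC correction turned the following directions (the value with the block added follows the word or). CDK1 moved to -0.23 or -0.23 in the TE interaction, to 0.020 or 0.020 in the total RNA interaction, to 0.014 or 0.014 in total RNA of siLSM14A HU against siLSM14A NT, and, for siLSM14A HU against siCTRL HU, to -0.11 or -0.11 in TE and -0.056 or -0.056 in polysomal RNA. In that last comparison CDC20 moved to 0.042 or 0.041 in TE and 0.060 or 0.059 in polysomal RNA, and PLK1 to 0.061 or 0.054 in TE and 0.13 or 0.12 in polysomal RNA. Between fractions CDK1 moved to 0.66 or 0.65 in siCTRL NT, 0.59 or 0.59 in siCTRL HU, 0.78 or 0.77 in siLSM14A NT and 0.45 or 0.45 in siLSM14A HU. CENPE moved to 0.20 or 0.17 in siCTRL HU, 0.30 or 0.25 in siLSM14A NT and 0.40 or 0.35 in siLSM14A HU, and CENPF to 0.017 in siLSM14A HU with GC correction alone. Leaving out replicates changed the sign of small differences. For siCTRL HU against siCTRL NT the ranges were -0.020 to 0.082 for CDC20, -0.21 to 0.030 for MKI67 and -0.068 to 0.075 for PLK1 in total RNA, and -0.43 to 0.11 in polysomal RNA and -0.44 to 0.18 in TE for TOP2A. For siLSM14A NT against siCTRL NT they were -0.27 to 0.42 in polysomal RNA and -0.018 to 0.16 in total RNA for TOP2A. These turns with GC correction follow from the offset, and what underlies the GC trend was not tested. Depth limits no member, the lowest holding 367 counts in a library.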
